A study of Mus musculus with 24 samples.

Results

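The 39 genes described here carry glucose through glycolysis and the pentose phosphate pathway or belong to the hypoxia pathway that regulates both. They were chosen by gene symbol and pathway, with earlier results of these data known, and all 39 were found among the 53715 genes of the expression table. By role, 4 encode sugar or lactate transporters, 16 encode glycolytic enzymes, 2 set the activity of phosphofructokinase, 11 belong to the hypoxia pathway and 6 to the pentose phosphate pathway. Of the 39, 37 reached the minimum level for testing. Aldoc, with at most 47 normalized counts, and Vegfa, with at most 17, did not.

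The study sorted monocytes from the blood of C57BL/6 mice aged 8-10 weeks and sequenced their RNA in 24 libraries, 4 biological replicates in each of 6 groups. Mice were wild type (wt) or carried a Notch2 deletion in myeloid cells (N2ΔMy), made with Cre recombinase under the Lyz2 promoter, and wt mice were littermates. All animals carried the Cx3cr1-GFP reporter used for sorting. Skin was treated daily with Aldara cream containing 5% imiquimod (IMQ), an agonist of Toll-like receptor 7, at 50 mg per mouse, or with Vaseline (Sham), and blood was taken on day 5. The groups were Ly6Chi monocytes of Sham mice, Ly6Chi monocytes of IMQ mice and Ly6Clo monocytes of IMQ mice, each from wt and from N2ΔMy animals. There was no Ly6Clo group from Sham mice, so the effect of treatment was measured in Ly6Chi cells and the difference between subsets was measured under IMQ.

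Glycolysis splits glucose into pyruvate and yields ATP without oxygen, and lactate dehydrogenase then turns pyruvate into lactate, which leaves the cell through monocarboxylate transporters. The pentose phosphate pathway branches off at glucose-6-phosphate and supplies NADPH and ribose. HIF-1α, encoded by Hif1a, is hydroxylated by the oxygen-dependent Egln enzymes and then bound for degradation by the Vhl protein. When it is stable, it raises transcription of glucose transporters, of most glycolytic enzymes and of genes such as Bnip3, P4ha1, Pdk1 and Vegfa. Activated myeloid cells are known to use glycolysis heavily. Ly6Chi monocytes are the inflammatory blood monocytes, and Ly6Clo monocytes are the patrolling cells that arise from them with help from Notch2.

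HIF-1 binds DNA at sites with the core letters ACGTG or GCGTG, so promoters of members that hold the first of these are shown before the values. Promoters were taken from RefSeq on build GRCm38.p6, as the 150 bases before the most upstream RefSeq start of each gene, and 36 of the 39 members had an entry. Slc2a3, Bnip3l and Ndrg1 had none. ACGTG, searched on both strands, lay in 12 of the 36 promoters (33.3%), against 3009 of 27025 promoters of all genes (11.1%) and 1204 of 7744 promoters of tested genes (15.5%). Either ACGTG or GCGTG lay in 66.7% of member promoters, 28.8% of all promoters and 45.6% of those of tested genes. The palindrome CACGTG, which holds ACGTG on both strands, lay in 11.1% of member promoters, 4.28% of all promoters and 6.46% of those of tested genes. The sequences below were chosen after their genes' values were seen, from called members that hold ACGTG. In at least 1 genotype, Slc16a3, Ldha and Pgk1 were called higher and Hk2 lower under IMQ, and Slc16a3 and P4ha1 were called higher and Hk2 and Pgk1 lower in Ly6Clo than in Ly6Chi cells. Capitals mark ACGTG or its reverse complement CACGT. They lie at chr11:120948917-120949066 (plus strand), chr10:59323146-59323295 (plus strand), chr7:46845654-46845803 (plus strand), chrX:106186950-106187099 (plus strand) and chr6:82774455-82774604 (minus strand), each printed 5′ to 3′ along the gene.
Slc16a3: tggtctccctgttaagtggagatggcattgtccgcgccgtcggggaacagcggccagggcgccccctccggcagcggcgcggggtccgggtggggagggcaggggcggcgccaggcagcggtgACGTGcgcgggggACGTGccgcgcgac
P4ha1: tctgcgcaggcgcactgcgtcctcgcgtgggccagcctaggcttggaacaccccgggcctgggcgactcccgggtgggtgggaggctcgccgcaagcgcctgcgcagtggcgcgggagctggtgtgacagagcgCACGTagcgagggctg
Ldha: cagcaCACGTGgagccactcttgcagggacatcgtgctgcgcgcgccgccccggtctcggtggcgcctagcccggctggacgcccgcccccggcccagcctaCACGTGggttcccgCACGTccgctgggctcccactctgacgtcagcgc
Pgk1: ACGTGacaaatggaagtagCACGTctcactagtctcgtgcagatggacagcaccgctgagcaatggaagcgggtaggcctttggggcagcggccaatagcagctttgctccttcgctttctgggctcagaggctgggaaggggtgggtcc
Hk2: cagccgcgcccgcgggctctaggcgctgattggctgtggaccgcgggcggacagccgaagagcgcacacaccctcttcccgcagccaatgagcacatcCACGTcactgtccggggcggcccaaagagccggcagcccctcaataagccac
Because they were chosen for the motif, the 5 say nothing of how often called members hold it. Of the 19 members called for treatment or subset below, 18 had an entry, and 9 held ACGTG while 9 did not. Those without it were Aldoa, Egln3, Gapdh, Hk1, Mif, Pdk1, Pkm, Slc2a6 and Taldo1. Ldha held 5 matches, 4 of which form 2 CACGTG palindromes, with the most distant starting 145 bases before the RefSeq start used. The 2 matches of Slc16a3 started 27 and 14 bases before that gene's RefSeq start. In GENCODE vM21, the RefSeq starts of Ldha and Slc16a3 lie 4329 and 587 bases inside the gene, downstream of its first start. The other 3 coincide with the GENCODE gene start. The Slc16a3 window shares 14 bases with an annotated exon and the other 4 share none. Of the 36 RefSeq starts, 9 lie 150 bases or more inside the GENCODE gene, so for these the window is not upstream of every transcript. A match is a description of the letters, and binding was not measured here.

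The values are DESeq2-normalized counts, rounded to whole numbers by the authors. Levels and isozyme shares were compared between genes after division by gene length, which is the annotated exonic length, so they depend on the annotation. Marker sums added undivided counts. Per kilobase and averaged over the 6 groups, Taldo1, the transaldolase of the pentose phosphate pathway, stood highest at 2826 normalized counts. Aldoa (aldolase) followed at 1746.2, Pkm (pyruvate kinase) at 1407.2 and G6pdx (glucose-6-phosphate dehydrogenase) at 1334.6. Egln3 at 12.1, Aldoc at 7.8, the glucose transporter gene Slc2a3 at 5.5 and Vegfa at 0.9 stood lowest.

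Depth in reads counted in genes, inferred from the spacing of the rounded values, ran from 9520000 to 19760000 per library with a median of 14975000. Reads not assigned to a gene are not in it. Replicates 1 and 2 of every group carry library numbers of one series and replicates 3 and 4 those of another. Eno1 (enolase 1) was higher in the second series than in the first in 6 of 6 groups, by a median of 0.76 on the log2 scale, and Pgam1 (phosphoglycerate mutase) by 0.92. Hk2 was lower in the second series in 6 of 6 groups, by a median log2 difference of -0.42, and Pkm by -0.31. Every group holds 2 libraries of each series, so the series were balanced over the groups. Notch2 was lower in every N2ΔMy library (7240 to 11518 normalized counts) than in any wt library (12656 to 20005). Notch2 RNA thus remained in the N2ΔMy libraries, as whole-gene counts show it. The marker sums matched the sorted subsets in wt mice. Summed Ly6Chi markers stood at 164400 or more in all 16 Ly6Chi libraries, at 2985 to 6217 in wt Ly6Clo libraries, and between these, at 36462 to 67928, in N2ΔMy Ly6Clo libraries. Over all libraries, T cell markers summed to at most 4, NK cell markers to at most 22, platelet markers to 21 to 273 and dendritic cell markers to 77 to 1387, the last in N2ΔMy Ly6Clo replicate 3.

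**Figure D1:**
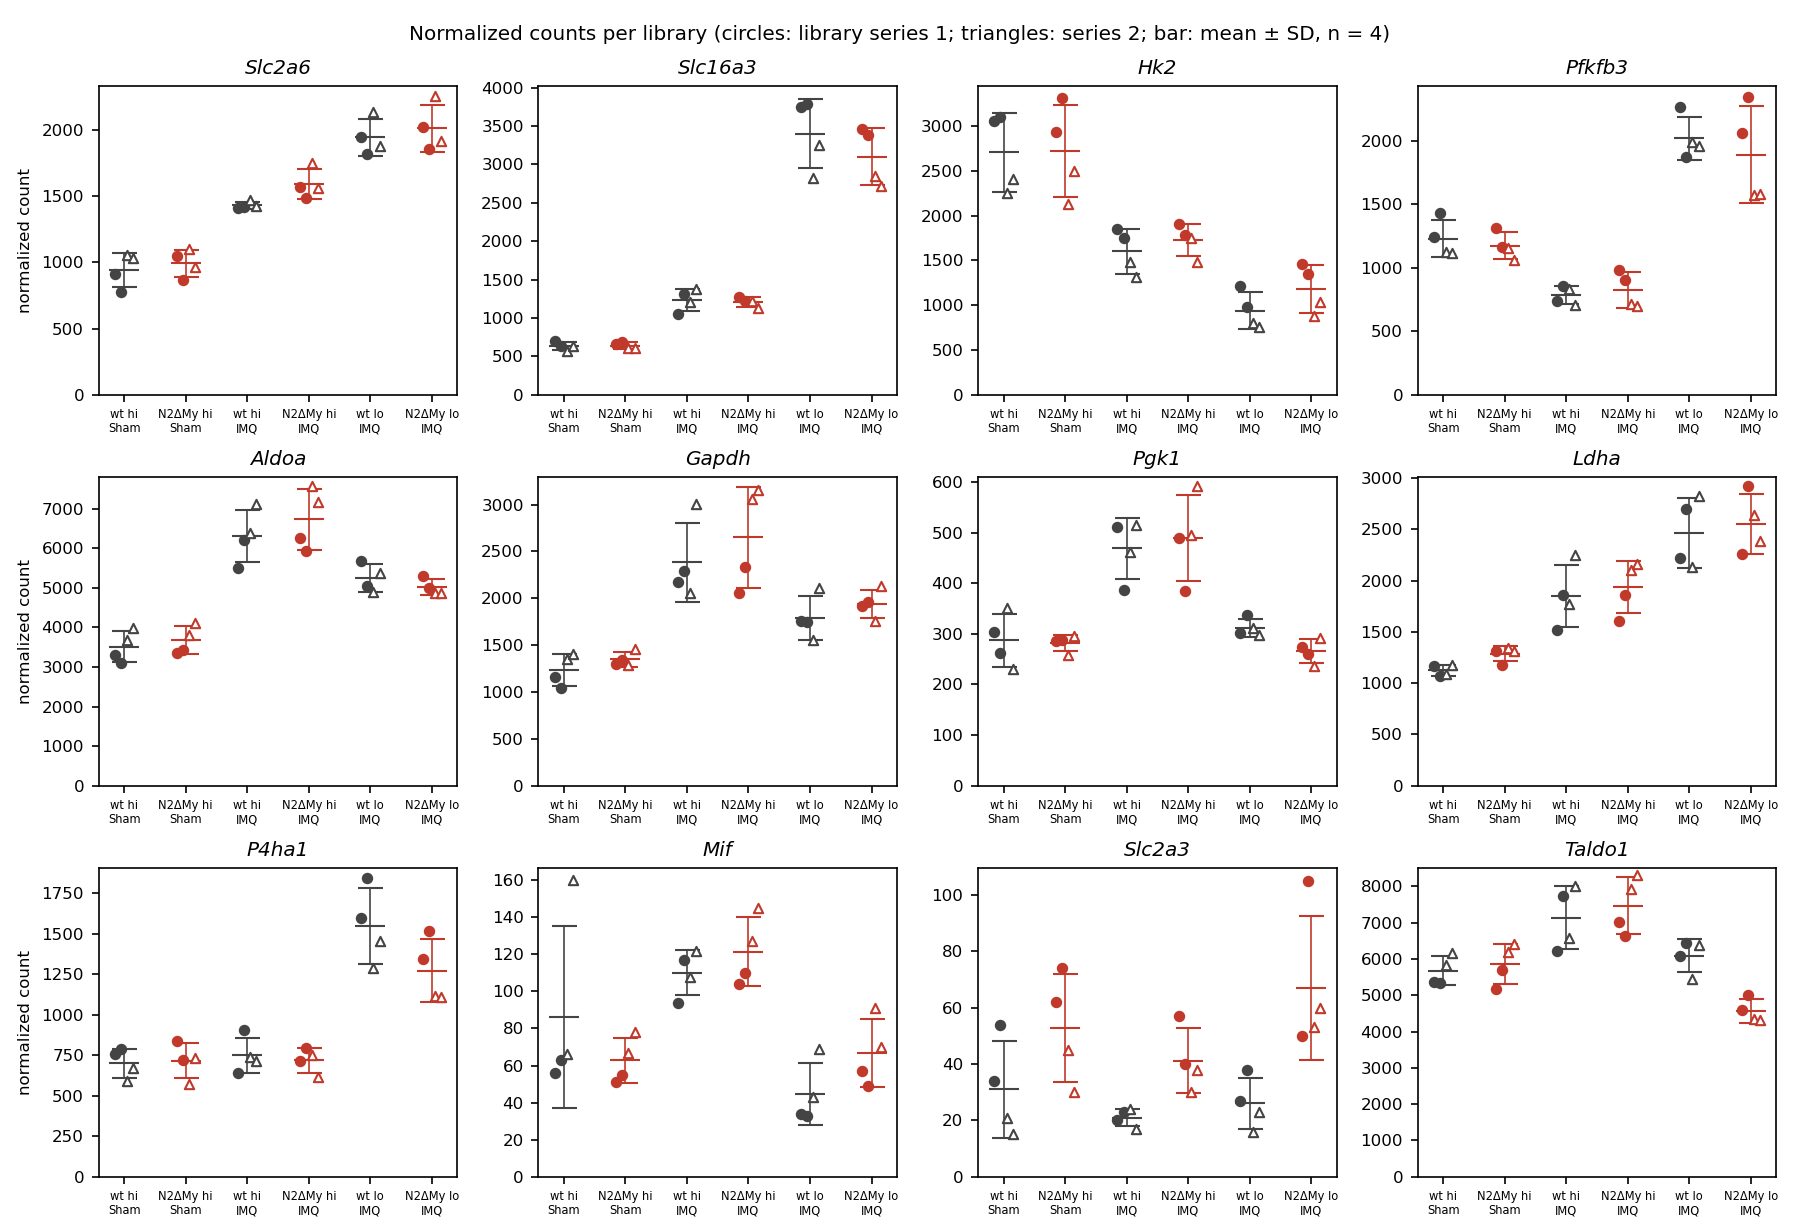
Normalized counts of selected members in each of the 24 libraries, by group, on a linear axis. Each point is 1 library (circles for the first library series, triangles for the second), and each bar is a group mean ± SD. Slc16a3 climbed from 568 to 695 in Sham Ly6Chi libraries to 2714 to 3780 in Ly6Clo libraries, while Hk2 went from 2129 to 3317 in Sham Ly6Chi libraries down to 760 to 1459 in Ly6Clo libraries.

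IMQ treatment raised several glycolytic enzymes and the lactate exporter in Ly6Chi monocytes of both genotypes, and lowered Hk2. In wt cells 7 of the 37 tested members were higher under IMQ and 2 were lower. A gene was called if its adjusted p was 0.05 or less and its log2 fold change 0.6 or more in size (limma with Benjamini-Hochberg adjustment over 11230 genes). By the same rule 9.49% of all tested genes were called, 4.43% higher and 5.07% lower. In N2ΔMy cells 7 members were higher and 1 was lower, where 8.7% of all genes were called, 4.15% higher and 4.55% lower. The members' median log2 fold change was 0.25 in wt cells and 0.34 in N2ΔMy cells, against 0.01 and 0.00 over all genes. The 4 libraries of IMQ did not overlap those of Sham for 15 members in wt cells (12 higher, 3 lower) and 18 in N2ΔMy cells (15 higher, 3 lower), which compares with 21.5% and 19.5% of all genes. Within each library series alone all 9 calls of wt and all 8 of N2ΔMy cells kept their sign, with log2 changes of at least 0.47 and 0.52 in size. In bulk RNA, fewer cells of a type and less RNA per cell cannot be told apart.

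Among the transporters, Slc16a3 and Slc2a6 rose. Slc16a3 encodes MCT4, which exports lactate. Its normalized counts were 695, 640, 568 and 636 in wt Sham libraries and 1049, 1313, 1211 and 1378 under IMQ. In N2ΔMy libraries they were 657, 691, 608 and 604 under Sham and 1268, 1226, 1214 and 1123 under IMQ. Sham and IMQ libraries lay far apart in both genotypes, with a log2 change of 0.96 ± 0.11 (SE, n = 4 per group; limma adjusted p = 0.000309) in wt and 0.92 ± 0.08 (limma adjusted p = 0.000158) in N2ΔMy cells. Slc2a6, which encodes the glucose transporter family member GLUT6, stood at 909, 773, 1052 and 1035 in wt Sham libraries and at 1412, 1421, 1472 and 1423 in wt IMQ libraries. Its log2 fold change was 0.61 ± 0.10 (limma adjusted p = 0.00279) in wt and 0.68 ± 0.10 (limma adjusted p = 0.00127) in N2ΔMy cells, again without overlap. The wt value sat at the fold limit, and without Sham replicate 2 it was 0.52 and no longer called. The main glucose transporter gene of most cells, Slc2a1, had a log2 difference of 0.31 ± 0.11 in wt cells and was not called (limma adjusted p = 0.0962), nor was Slc2a3, with at most 74 normalized counts in Ly6Chi cells.

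The genes of aldolase, glyceraldehyde-3-phosphate dehydrogenase and phosphoglycerate kinase, in the middle of glycolysis, rose in both genotypes. Aldoa stood at 3299, 3089, 3691 and 3973 in wt Sham and at 5501, 6220, 6375 and 7125 in wt IMQ libraries. Its log2 fold change was 0.87 in the first library series and 0.82 in the second, and over both 0.84 ± 0.11 (limma adjusted p = 0.000514) in wt and 0.87 ± 0.10 (limma adjusted p = 0.000516) in N2ΔMy cells. No Sham library reached the lowest IMQ library in either genotype. Gapdh stood between 1038 and 1403 in wt Sham and at 2174, 2296, 2056 and 3002 in wt IMQ libraries, a log2 change of 0.94 ± 0.13 (limma adjusted p = 0.0011), with 0.95 ± 0.14 in N2ΔMy cells (limma adjusted p = 0.00134). Gapdh has many processed pseudogenes. The 145 near-identical copies in the table held 11.15 to 20.77% of the sum of Gapdh and its copies, and adding them to Gapdh left its call in place. Pgk1 stood at 304, 262, 351 and 231 in wt Sham and at 512, 387, 461 and 515 in wt IMQ libraries. Its log2 fold change was 0.71 ± 0.15 (limma adjusted p = 0.0105) in wt and 0.78 ± 0.14 (limma adjusted p = 0.00463) in N2ΔMy cells.

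Ldha, the lactate dehydrogenase subunit that favours lactate formation, rose in wt cells. Its counts were 1168, 1067, 1085 and 1178 under Sham and 1519, 1856, 1776 and 2246 under IMQ, a log2 change of 0.70 ± 0.11 (limma adjusted p = 0.0021). In N2ΔMy cells the libraries also did not overlap, at 1317, 1178, 1341 and 1312 against 1607, 1861, 2099 and 2165, but the log2 difference of 0.58 lay under the fold limit (limma adjusted p = 0.00491). Triose phosphate isomerase, Tpi1, was close to the limit in both genotypes, with log2 differences of 0.59 (limma adjusted p = 0.0138) and 0.57 (limma adjusted p = 0.00284). With TMM scaling Tpi1 in wt cells came to 0.60 and was called. The log2 difference of Pkm was 0.47 in wt and 0.46 in N2ΔMy cells and that of Gpi1, glucose phosphate isomerase, was 0.31 in N2ΔMy cells, all uncalled.

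Pgam1 and Eno1 differed more between the library series than between treatments. Eno1 stood at 1718, 1618, 3236 and 3099 in wt Sham and at 2293, 2553, 3734 and 4338 in wt IMQ libraries, so replicates 3 and 4 of Sham lay above replicates 1 and 2 of IMQ. Its log2 differences of 0.44 in wt and 0.49 in N2ΔMy cells lay under the fold limit. Their adjusted p was 0.311 and 0.338 in limma, and 0.00165 and 0.00266 with a block for the replicate number. Pgam1 showed the same order of libraries in N2ΔMy cells, at 106, 146, 218 and 203 under Sham and 180, 178, 461 and 370 under IMQ. Its log2 difference of 0.75 there had an adjusted p of 0.202 in limma and of 0.0127 with the block. The block added Pgam1 and Ndrg1 to the calls of N2ΔMy cells (9 higher, 1 lower, against 9.89% of all genes called either way) and changed no member's call in wt cells. Ndrg1 had a log2 difference of 0.67 there, with an adjusted p of 0.0518 in limma and of 0.00397 with the block.

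Hk2 moved the other way. It encodes the inducible hexokinase that binds mitochondria, and stood at 3059, 3099, 2247 and 2411 in wt Sham and at 1854, 1750, 1484 and 1310 in wt IMQ libraries. Its log2 fold change was -0.76 ± 0.14 (limma adjusted p = 0.00446), with -0.77 in the first library series and -0.74 in the second. In N2ΔMy cells Hk2 stood at 2936, 3317, 2129 and 2502 under Sham and 1902, 1782, 1749 and 1481 under IMQ, a log2 change of -0.64 ± 0.14 (limma adjusted p = 0.0119). IMQ libraries lay below every Sham library in both genotypes. The N2ΔMy call was lost, on the fold limit, without Sham replicate 1 (-0.60), Sham replicate 2 (-0.54) or IMQ replicate 4 (-0.57). Hk1 and Hk3 were not called in either genotype.

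Both genes that set phosphofructokinase activity were lower in IMQ libraries of both genotypes, and 1 of the 4 values was called. Pfkfb3 makes fructose-2,6-bisphosphate, the main activator of phosphofructokinase. It stood at 1241, 1434, 1128 and 1117 in wt Sham and 738, 855, 831 and 710 in wt IMQ libraries, a log2 change of -0.65 ± 0.11 (limma adjusted p = 0.00241). Without Sham replicate 2 the value was -0.57 and fell under the fold limit. In N2ΔMy cells Pfkfb3 had a log2 difference of -0.52 (limma adjusted p = 0.0219) and was not called. Pfkfb4, its relative, had log2 differences of -0.50 (limma adjusted p = 0.00324) in wt and -0.43 (limma adjusted p = 0.019) in N2ΔMy cells.

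Of the 10 hypoxia pathway genes tested, Ndrg1 was higher under IMQ in wt cells, and Pdk1 and Mif were higher in N2ΔMy cells. The 1 of 10 in wt and 2 of 10 in N2ΔMy cells compare with 9.49% and 8.7% of all genes called. Ndrg1, a stress-responsive gene, stood at 1166, 1189, 1775 and 1697 under Sham and 1939, 1953, 2267 and 2701 under IMQ in wt cells, a log2 change of 0.62 ± 0.16 (limma adjusted p = 0.026). Its libraries did not overlap, but its call was lost without Sham replicate 1 (0.52), Sham replicate 2 (0.53), IMQ replicate 3 (0.60, limma adjusted p = 0.0564) or IMQ replicate 4 (0.52). Pdk1, a kinase that inhibits pyruvate dehydrogenase, stood at 156, 121, 86 and 111 under Sham and 257, 205, 178 and 200 under IMQ in N2ΔMy cells, a log2 change of 0.84 ± 0.21 (limma adjusted p = 0.0228). The groups did not overlap. The call of Pdk1 was lost without Sham replicate 2, 3 or 4 or IMQ replicate 1, 2 or 4, with adjusted p between 0.0503 and 0.0643. Mif, a cytokine gene, stood at 51, 55, 67 and 78 under Sham and 104, 110, 127 and 145 under IMQ, a log2 change of 0.95 ± 0.21 (limma adjusted p = 0.0143), and without IMQ replicate 4 its adjusted p was 0.0512. Without that library 5 members were called in N2ΔMy cells instead of 8. Hif1a, Egln1, Vhl, Bnip3, Bnip3l and P4ha1 were not called in either genotype.

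No pentose phosphate gene was called under IMQ. The log2 differences of the 6 genes ran from -0.15 to 0.43 in wt and from -0.14 to 0.47 in N2ΔMy cells. The highest was Tkt, transketolase, in wt cells (0.43, limma adjusted p = 0.0139), and Pgd, the second NADPH-producing step, in N2ΔMy cells (0.47, limma adjusted p = 0.0033).

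Other cells and cell states moved with IMQ beside these genes. The summed level of 6 proliferation markers was 537 to 824 in wt and 559 to 873 in N2ΔMy Sham libraries, and 1927 to 3048 and 1636 to 2296 under IMQ. Mki67 alone went from 150 to 389 in wt Sham libraries to 1258 to 2396 under IMQ. The summed level of 8 neutrophil markers was at most 59 in Sham Ly6Chi libraries and 921 to 5213 in IMQ Ly6Chi libraries, nearly all of it from S100a8 (402 to 3443) and S100a9 (499 to 1739), which monocytes can also express. In the same IMQ libraries Ly6g was at 0, and Ngp, Ltf, Camp, Retnlg and Cxcr2 were at most 19. The study's gate for these cells leaves out those that stain for Ly6G. Of 6 macrophage markers tested, Mertk and Adgre1 were higher under IMQ in N2ΔMy cells and 0 were called in wt cells, with median log2 differences of 0.92 and 0.55. Of 3 platelet markers, Ppbp was higher in N2ΔMy cells and 0 were called in wt cells, with medians of 1.78 and 1.58. Of 3 dendritic cell markers, Flt3 was lower in both genotypes, with medians of -0.84 in wt and -0.88 in N2ΔMy cells. Erythroid markers were highest in replicate 4 of every IMQ group, at 774 to 1573 against at most 95 in replicates 1 to 3. With replicates 1 to 3 alone, 8 members were called in wt and 5 in N2ΔMy cells. The part of these shifts in the members' differences was not tested.

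**Figure D2:**
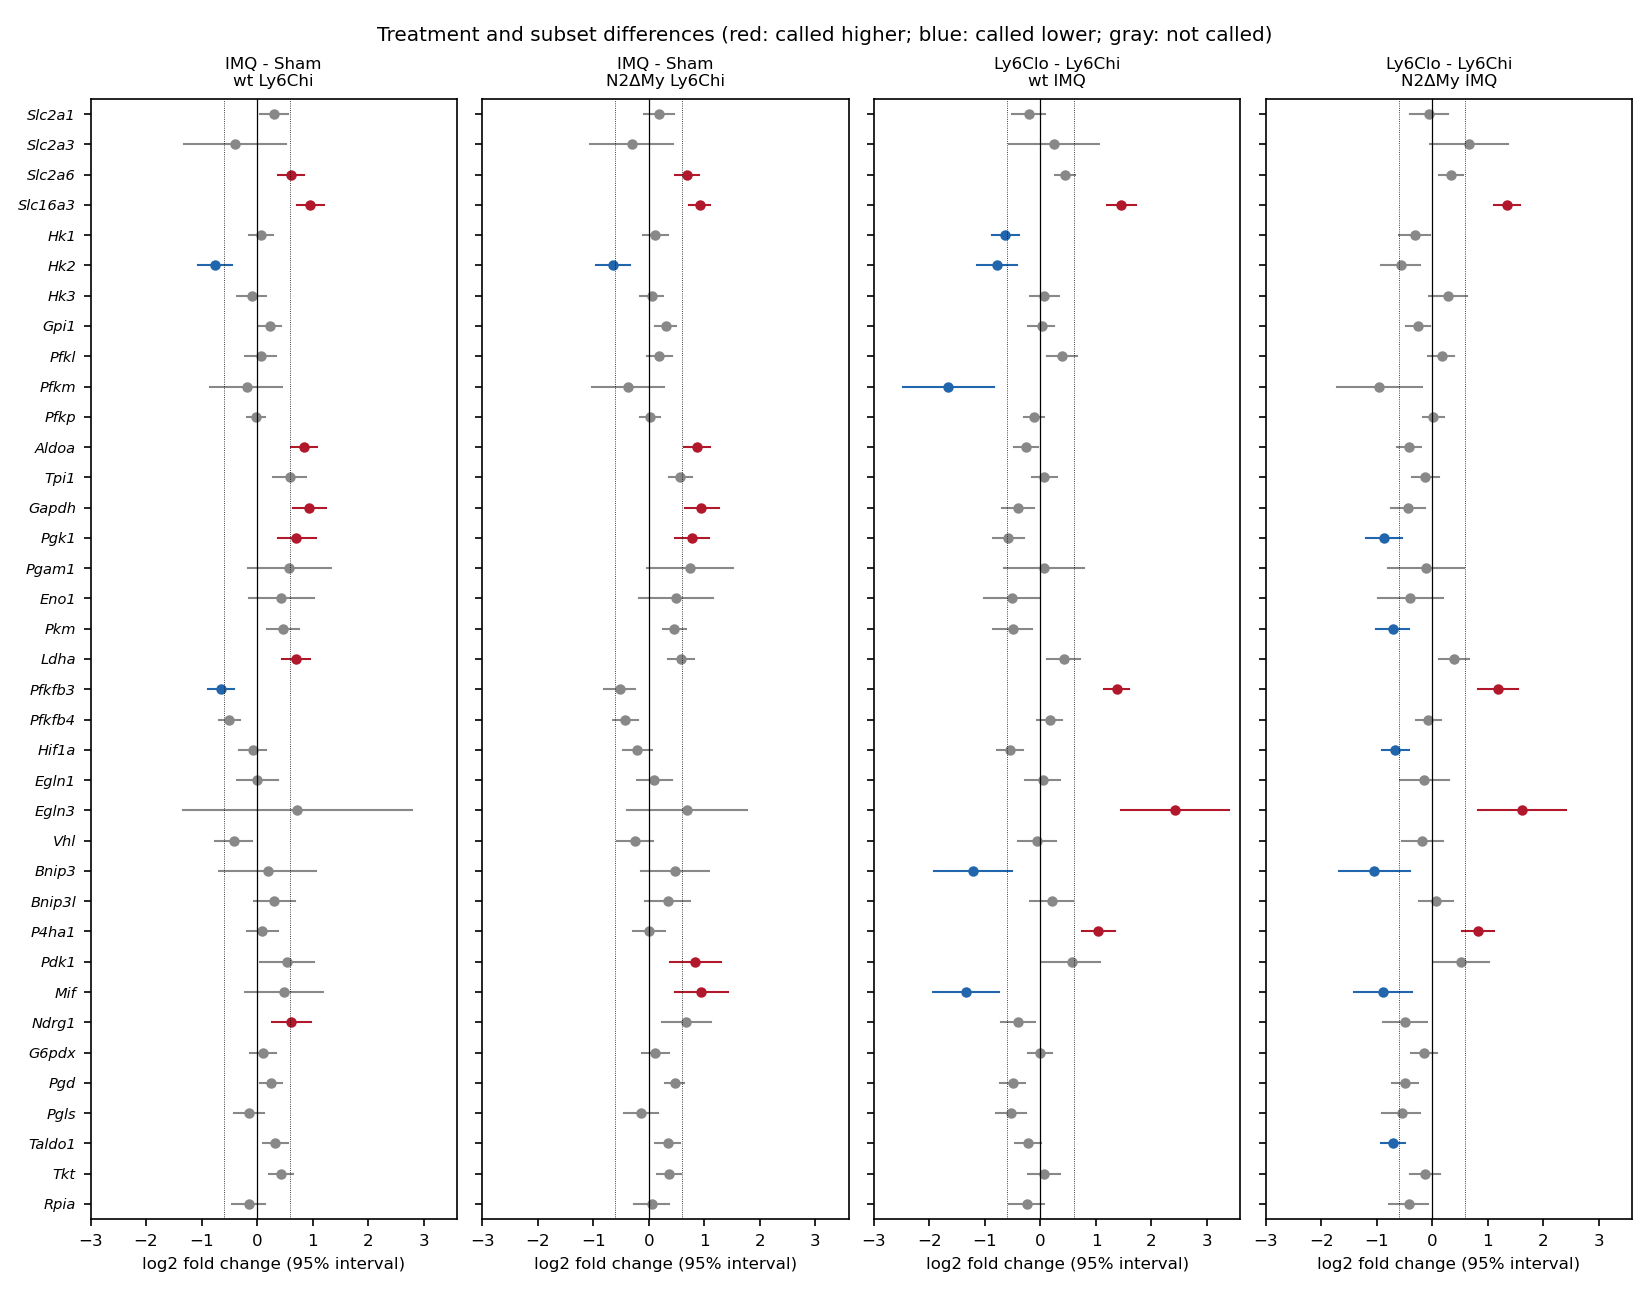
Log2 fold changes (log2 of normalized count + 1) of the tested members, with 95% confidence intervals, for IMQ against Sham in Ly6Chi cells and for Ly6Clo against Ly6Chi cells under IMQ, in wt and in N2ΔMy mice. Slc16a3 lies above 0 in all 4 comparisons (0.92 to 1.45), whereas Pfkfb3 lies below 0 for IMQ and above 0 for Ly6Clo cells.

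Under IMQ, Ly6Clo monocytes differed from Ly6Chi monocytes in single steps and in both directions. In wt mice 4 of the 37 members were higher in Ly6Clo cells and 5 were lower, where 24.6% of all genes were called, 11.9% higher and 12.7% lower. In N2ΔMy mice 4 were higher and 6 lower, where 17.4% of all genes were called, 9.01% higher and 8.38% lower. The members' share of calls was thus near the share of all genes in wt mice. Their median log2 difference was -0.06 in wt and -0.14 in N2ΔMy mice, against -0.01 and 0.00 over all genes. In N2ΔMy mice the library series differed, with a median of -0.007 and 5 members higher and 2 lower in the first (8.93% and 7.64% of all genes), and -0.36 and 4 higher and 12 lower in the second (11.7% and 10.4% of all genes). The 4 higher members include Egln3 in both genotypes, which passed the filter on low values through Ly6Clo libraries alone, and 3 were higher without it. Libraries did not overlap for 15 members in wt mice (6 higher, 9 lower) and 16 in N2ΔMy mice (6 higher, 10 lower), against 35.4% and 27.8% of all genes. With a block for the replicate number, Pfkm was added to the genes lower in N2ΔMy Ly6Clo cells (4 higher, 7 lower, against 20.5% of all genes called). Within each library series alone all 9 calls of wt and all 10 of N2ΔMy mice kept their sign, with log2 differences of at least 0.61 and 0.49 in size. The Ly6Chi IMQ libraries are the same ones that were compared with Sham.

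Slc16a3 was the transporter that rose. In wt mice it stood at 1049, 1313, 1211 and 1378 in Ly6Chi libraries and at 3750, 3780, 2823 and 3250 in Ly6Clo libraries, 2.74-fold higher, with a log2 change of 1.45 ± 0.12 (limma adjusted p = 7.36e-06). The log2 change was 1.68 in the first library series and 1.23 in the second. In N2ΔMy mice it stood at 1268, 1226, 1214 and 1123 against 3461, 3379, 2847 and 2714, a log2 change of 1.35 ± 0.10 (limma adjusted p = 5.64e-06). The lowest Ly6Clo library lay above every Ly6Chi library in both genotypes. Slc2a6 libraries did not overlap in wt mice either, at 1412 to 1472 against 1816 to 2137, but its log2 difference of 0.44 (limma adjusted p = 0.00186) lay under the fold limit.

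Pfkfb3 rose alongside it. Its normalized counts were 738, 855, 831 and 710 in wt Ly6Chi and 2265, 1871, 1994 and 1964 in wt Ly6Clo libraries, a log2 change of 1.37 ± 0.10 (2.58-fold; limma adjusted p = 2.9e-06). In N2ΔMy mice they were 980, 907, 716 and 702 against 2064, 2351, 1573 and 1580, with 1.19 ± 0.16 (2.28-fold; limma adjusted p = 0.000331). The gene that was lower in Ly6Chi cells under IMQ was therefore higher in the Ly6Clo cells of the same treatment than in any Ly6Chi library, Sham included. Pfkfb4 was not called in either genotype.

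Of the 15 glycolytic enzymes tested none was called higher in Ly6Clo cells. In wt mice 3 fell (20%, against 12.7% of all genes called lower) and in N2ΔMy mice 2 fell (13.3%, against 8.38%). Hk2 stood at 1854, 1750, 1484 and 1310 in wt Ly6Chi and 1217, 982, 798 and 760 in wt Ly6Clo libraries, a log2 change of -0.78 ± 0.16 (limma adjusted p = 0.00342). In N2ΔMy mice its libraries also did not overlap, at 1481 to 1902 against 879 to 1459, but the log2 difference of -0.57 (limma adjusted p = 0.0219) lay under the fold limit. Hk1, the housekeeping hexokinase, stood at 1367, 1658, 1256 and 1428 in wt Ly6Chi against 1014, 922, 922 and 829 in wt Ly6Clo libraries, a log2 change of -0.63 ± 0.11 (limma adjusted p = 0.00105) that was lost on the fold limit without Ly6Chi replicate 2 (-0.55) or Ly6Clo replicate 4 (-0.58). Pfkm, the muscle-type phosphofructokinase, was low everywhere and fell from 97, 118, 87 and 44 to 38, 16, 24 and 27 in wt mice, a log2 change of -1.66 ± 0.37 (limma adjusted p = 0.00511). In N2ΔMy mice its log2 difference of -0.95 was uncalled (limma adjusted p = 0.0684) and called with the block (adjusted p = 0.0233).

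Several enzymes differed in either direction by less than the fold limit. Ldha was on the higher side in Ly6Clo cells, with log2 differences of 0.42 (limma adjusted p = 0.0328) in wt and 0.40 (limma adjusted p = 0.0332) in N2ΔMy mice, where its libraries did not overlap. Pfkl, the liver-type phosphofructokinase, had 0.39 in wt mice (limma adjusted p = 0.0272), also without overlap. Gapdh was on the lower side, at -0.41 (limma adjusted p = 0.036) in wt and -0.43 (limma adjusted p = 0.0466) in N2ΔMy mice, as was Aldoa in N2ΔMy mice, at -0.42 (limma adjusted p = 0.0113).

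The 2 glycolytic enzymes called lower in N2ΔMy Ly6Clo cells were Pgk1, phosphoglycerate kinase, and Pkm, pyruvate kinase. Pgk1 stood at 490, 384, 495 and 592 in Ly6Chi and 275, 261, 236 and 291 in Ly6Clo libraries, a log2 change of -0.87 ± 0.15 (limma adjusted p = 0.00154). Pkm stood at 9558, 9260, 8906 and 8763 against 6499, 6851, 4594 and 4726, with -0.71 ± 0.14 (limma adjusted p = 0.00326). Neither overlapped. In wt mice the same genes had log2 differences of -0.58 (limma adjusted p = 0.00429) and -0.50, both uncalled, and the interaction of genotype and subset was not significant for either.

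Of the 10 hypoxia pathway genes tested, 2 were called higher and 2 lower in wt Ly6Clo cells, where 24.6% of all genes were called, and 2 higher and 3 lower in N2ΔMy Ly6Clo cells, where 17.4% were. Without Egln3, whose difference the filter on low values partly fixed, 1 of 9 was higher in each genotype. P4ha1, a prolyl 4-hydroxylase of collagen synthesis, rose from 642, 902, 736 and 714 in wt Ly6Chi libraries to 1594, 1841, 1289 and 1453 in wt Ly6Clo libraries, a log2 change of 1.04 ± 0.14 (2.06-fold; limma adjusted p = 0.000159), and by 0.82 ± 0.13 in N2ΔMy mice (1.76-fold; limma adjusted p = 0.000972). Egln3, a HIF prolyl hydroxylase gene, stood at 58, 83, 61 and 95 in wt Ly6Clo libraries and at 5 to 24 in wt Ly6Chi IMQ libraries, a log2 change of 2.42 ± 0.44 (limma adjusted p = 0.00144). It passed the filter on low values through its Ly6Clo libraries alone, since no Ly6Chi library exceeded 29, so its difference is partly fixed by the filter.

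Bnip3, Mif and Hif1a were lower in Ly6Clo cells. Bnip3, a mitophagy receptor gene, stood at 91, 148, 60 and 97 in wt Ly6Chi and 38, 45, 54 and 28 in wt Ly6Clo libraries, with log2 fold changes of -1.21 ± 0.32 (limma adjusted p = 0.0118) in wt and -1.04 ± 0.29 (limma adjusted p = 0.0224) in N2ΔMy mice. The 3 near-identical copies of Bnip3 held up to 15.56% of their joint sum. Mif stood at 94, 117, 108 and 122 against 34, 33, 43 and 69 in wt mice, with -1.34 ± 0.27 (limma adjusted p = 0.00267), and -0.88 ± 0.24 (limma adjusted p = 0.02) in N2ΔMy mice. Neither gene overlapped between subsets in wt mice. In N2ΔMy mice the call of Bnip3 was lost without Ly6Chi replicate 2 (adjusted p = 0.0672) or Ly6Clo replicate 4 (0.0532), and that of Mif without Ly6Chi replicate 3 (0.0518), Ly6Chi replicate 4 (0.0632) or Ly6Clo replicate 1 (0.0515). Hif1a itself stood at 1800, 1937, 2162 and 2241 in N2ΔMy Ly6Chi and at 1196, 1483, 1164 and 1279 in N2ΔMy Ly6Clo libraries, a log2 change of -0.67 ± 0.11 (limma adjusted p = 0.00126). In wt mice its log2 difference of -0.55 (limma adjusted p = 0.00267) lay under the fold limit. These are RNA levels, and the stability of the HIF-1α protein was not measured.

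In the pentose phosphate pathway Taldo1 was called. It stood at 7022, 6631, 7933 and 8303 in N2ΔMy Ly6Chi and at 4599, 5008, 4333 and 4325 in N2ΔMy Ly6Clo libraries, a log2 change of -0.71 ± 0.10 (limma adjusted p = 0.000495). In wt mice the log2 difference was -0.22 ± 0.11 (limma adjusted p = 0.129), with libraries at 6216 to 8010 and 5452 to 6433. Pgd and Pgls in wt mice had log2 differences of -0.50 and -0.53 and were not called.

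Markers of other cells and states moved with the subset as well. Summed proliferation markers were 664 to 974 in wt and 686 to 1329 in N2ΔMy Ly6Clo libraries, below the 1636 to 3048 of Ly6Chi IMQ libraries. Summed neutrophil markers were 17 to 290 in Ly6Clo libraries, and the lower sum came from S100a8 and S100a9. Ngp, Ltf and Retnlg were low in both subsets and did not fall with them. In N2ΔMy Ly6Clo libraries they stood at 12 to 24, 7 to 35 and 4 to 8. The N2ΔMy Ly6Chi IMQ libraries held 0 to 7, 2 to 8 and 0 to 1. In wt mice they reached 43, 53 and 30 against 8, 7 and 4, with overlap. Under IMQ Ly6g was at 0 in both subsets, and Camp and Cxcr2 overlapped between them. Of 6 macrophage markers tested, 6 were higher in Ly6Clo than Ly6Chi cells of N2ΔMy mice, with a median log2 difference of 3.78, and 2 were higher and 1 lower in wt mice, with a median of 0.96. Their sum was 2883 to 3912 in wt Ly6Chi IMQ and 4690 to 6688 in wt Ly6Clo libraries. In N2ΔMy mice it was 4612 to 6108 in Ly6Chi IMQ and 11011 to 14724 in Ly6Clo libraries. Of 3 dendritic cell markers tested, 2 were higher in N2ΔMy mice, with a median of 3.17, and 1 was higher and 1 lower in wt mice, with a median of 2.32. Their part in the members' differences was not tested.

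The 2 genotypes share no library, but their libraries with the same replicate number deviated together (correlations of 0.374 to 0.619 between the genotypes). For IMQ against Sham, 33 of the 37 members had the same sign in both genotypes, and 6 were called the same way in both: Slc2a6, Slc16a3, Aldoa, Gapdh and Pgk1 higher and Hk2 lower. These are 66.7% of the 9 calls of wt and 75% of the 8 calls of N2ΔMy cells. For Ly6Clo against Ly6Chi, 30 members had the same sign and 6 were called in both: Slc16a3, Pfkfb3, P4ha1 and Egln3 higher and Bnip3 and Mif lower, 66.7% of the wt calls and 60.0% of the N2ΔMy calls. Without Egln3, which the filter partly fixed and whose N2ΔMy call was lost with all 24 libraries in one fit (adjusted p = 0.0726), 29 of 36 had the same sign and 5 were called in both, 62.5% of the wt calls and 55.6% of the N2ΔMy calls. Across the 37 members the log2 fold changes of the genotypes had a Pearson correlation of 0.96 for treatment and 0.94 for subset (0.93 without Egln3), given as a description, since genes are not independent. The agreement of the genotypes over all tested genes was not computed, so these counts and correlations do not set the members apart from other genes.

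**Figure D3:**
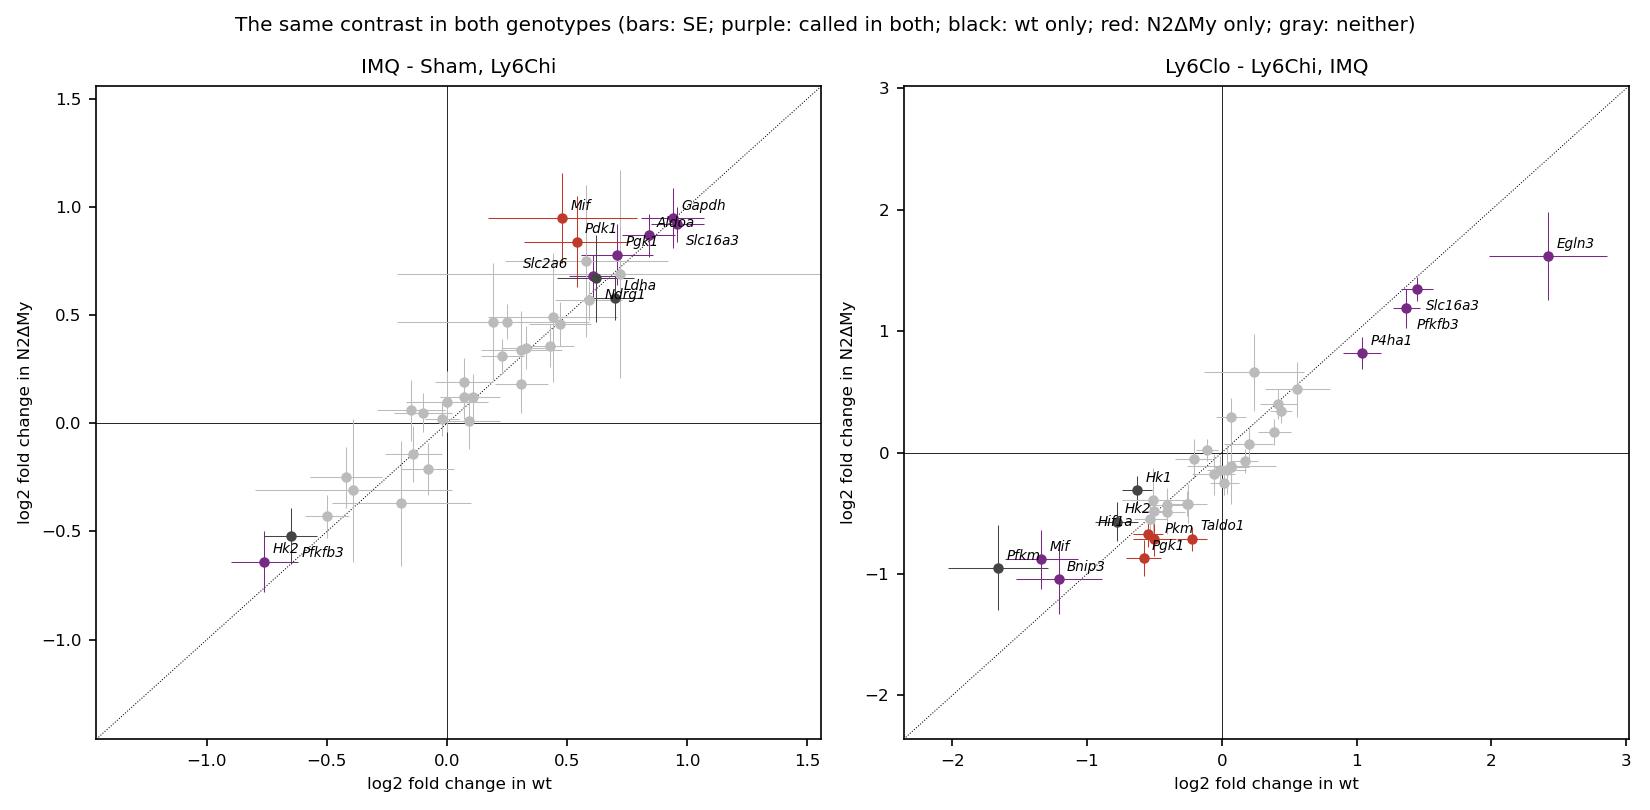
Log2 fold change of each tested member in wt mice (x axis) against N2ΔMy mice (y axis), left for IMQ against Sham in Ly6Chi cells and right for Ly6Clo against Ly6Chi cells under IMQ; the line marks equal values. Most members lie near the line, with Slc16a3 at 0.96 and 0.92 on the left and at 1.45 and 1.35 on the right.

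Between N2ΔMy and wt mice no member passed both thresholds in limma with the group as the only term. Under other settings Slc2a3 did in Ly6Clo cells, with the replicate block (log2 difference 1.33, adjusted p = 0.0103), the library series as covariate (adjusted p = 0.0162), all 24 libraries in one fit (adjusted p = 0.0196) or a pseudocount of 10 (1.08, adjusted p = 0.0484). Hk3 did so there within the first library series alone (0.73, adjusted p = 0.0216). In Ly6Clo cells under IMQ 0 of 37 members were called, where 4.78% of all genes were, by limma. At an unadjusted p under 0.05 there were 5 members, against 19.5% of all genes. In Ly6Chi cells 0 members were called under IMQ (0.0267% of all genes) and 0 under Sham (0.0178%), with 5 and 3 members at an unadjusted p under 0.05 (6.05% and 5.21% of all genes). In these 2 comparisons of Ly6Chi cells the block called 0.481% and 0.0267% of all genes and no member. Among members in Ly6Clo cells, the widest 95% interval reached 0.88 on the log2 scale to either side of its estimate, so for the lowest genes differences near the fold limit were not detectable. Of 200 simulated 2-fold differences in this comparison 118 were recovered, so differences of that size could be missed in other genes too.

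The lowest adjusted p of any member belonged to Taldo1 in Ly6Clo cells. Its normalized counts were 6089, 6433, 5452 and 6392 in wt and 4599, 5008, 4333 and 4325 in N2ΔMy libraries. All N2ΔMy libraries lay below all wt libraries, with a log2 difference of -0.42 ± 0.09 (95% interval -0.62 to -0.21, limma adjusted p = 0.0224), which lies under the fold limit. In Ly6Chi cells under IMQ the log2 difference of Taldo1 was 0.07 (95% interval -0.18 to 0.32). The difference between these effects, the interaction of genotype and subset, was -0.48 ± 0.14 and had an adjusted p of 0.165 in limma.

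Slc2a3, which encodes the high-affinity glucose transporter GLUT3, was low everywhere. In Ly6Clo cells it stood at 27, 38, 16 and 23 in wt and at 50, 105, 53 and 60 in N2ΔMy libraries. In Ly6Chi cells under IMQ it stood at 20, 23, 24 and 17 against 57, 40, 30 and 38, and under Sham at 34, 54, 21 and 15 against 62, 74, 45 and 30. The groups did not overlap under IMQ in either subset and overlapped under Sham. The log2 differences were 1.33 ± 0.36 (95% interval 0.54 to 2.12, limma adjusted p = 0.0539), 0.92 (adjusted p = 0.603) and 0.83 (adjusted p = 0.937). With the replicate block, which called 8.36% of all genes in Ly6Clo cells, Slc2a3 was the 1 member called there (adjusted p = 0.0103). Its 1 near-identical copy held up to 9.09% of their joint sum.

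Other members stayed below the thresholds. In Ly6Clo cells Hk3 had a log2 difference of 0.48 and Hk1 of 0.44 (limma adjusted p = 0.0743). Hk1 stood at 1014, 922, 922 and 829 in wt and 1407, 1488, 1086 and 1078 in N2ΔMy libraries, without overlap. Hif1a had a log2 difference of 0.41 in Sham Ly6Chi cells (limma adjusted p = 0.921), with wt libraries at 1563, 1766, 1728 and 2036 and N2ΔMy libraries at 1884, 2352, 2620 and 2585. For the interaction of genotype and subset 0 members were called (1.03% of all genes), with 1 member at an unadjusted p under 0.05 (8.33% of all genes). For the interaction of genotype and treatment 0 members and 0% of all genes were called, with 0 members at an unadjusted p under 0.05 (1.58% of all genes). Summed macrophage markers were 4690 to 6688 in wt and 11011 to 14724 in N2ΔMy Ly6Clo libraries, with C1qa at 0 to 26 and 203 to 305. Summed Ly6Clo markers were 102428 to 129147 and 56499 to 77938. Of the 8 genes in that sum 3 were called lower and 1 higher in N2ΔMy cells. The higher one was Cd36, at 424 to 1761 in wt and 1969 to 3980 in N2ΔMy libraries. The part of these shifts in the members' genotype differences was not tested.

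**Figure D4:**
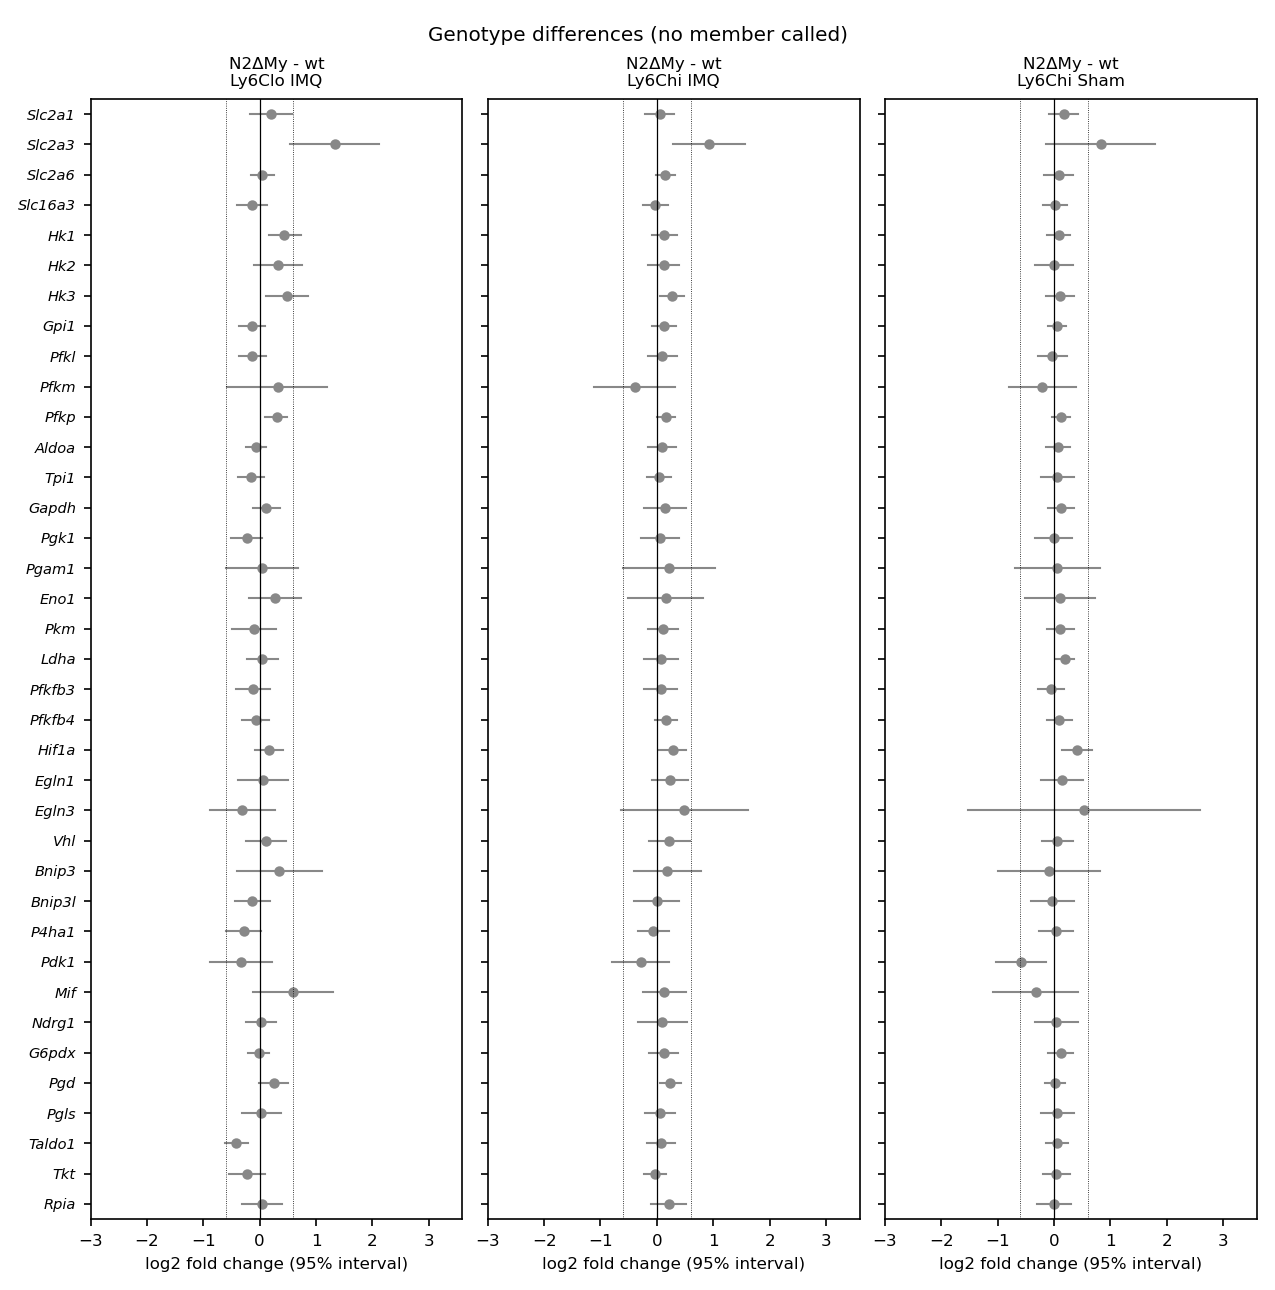
Log2 difference of N2ΔMy minus wt for each tested member, with 95% confidence intervals, in Ly6Clo cells under IMQ, Ly6Chi cells under IMQ and Ly6Chi cells under Sham. Slc2a3 has the highest value in each (1.33, 0.92 and 0.83), and Taldo1 in Ly6Clo cells lies at -0.42.

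The isozymes that catalyse the same step changed their shares of RNA. Shares were computed per gene length within each family and are descriptions without a test. Hk2 held 47.1% ± 3.74 (SD, n = 4) of hexokinase RNA in wt Sham Ly6Chi cells, 35.3% ± 1.78 under IMQ and 25.9% ± 2.99 in Ly6Clo cells, while Hk3, the myeloid hexokinase, held 36.2%, 42.5% and 56.2%. In N2ΔMy cells Hk2 held 45.4%, 33.7% and 23.9%. The hexokinase total per kilobase was 958.5, 757.1 and 604.2 normalized counts in wt and 997.8, 858.4 and 827.1 in N2ΔMy groups. Among phosphofructokinases, the liver type Pfkl held 35.5%, 37.2% and 49.1% ± 2.70 in the wt groups, and 41.7% ± 0.662 in N2ΔMy Ly6Clo cells. The muscle type Pfkm held 13.3%, 12.2% and 3.73% in wt. Slc2a6 held most of the RNA of the 3 glucose transporter genes, at 74.1%, 78.4% and 84.8% in wt.

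The enolases and lactate dehydrogenases were added to these families after their values were seen, since Eno3 and Ldhb are not members. Eno3, the muscle-type enolase, held 19.2% ± 7.67 of the RNA of Eno1 and Eno3 in wt Sham Ly6Chi cells and 31.4% ± 7.55 under IMQ. In Ly6Clo cells it held 90.5% ± 1.65 in wt and 81.2% ± 1.25 in N2ΔMy mice. The total of both enolases per kilobase was 903.2 in wt Ly6Chi IMQ and 4349 in wt Ly6Clo cells, and 2656 in N2ΔMy Ly6Clo cells. Ldhb, the subunit that favours pyruvate, held 31.3% of lactate dehydrogenase RNA in wt Sham Ly6Chi cells, 7.14% under IMQ and 0.607% in Ly6Clo cells.

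**Figure D5:**
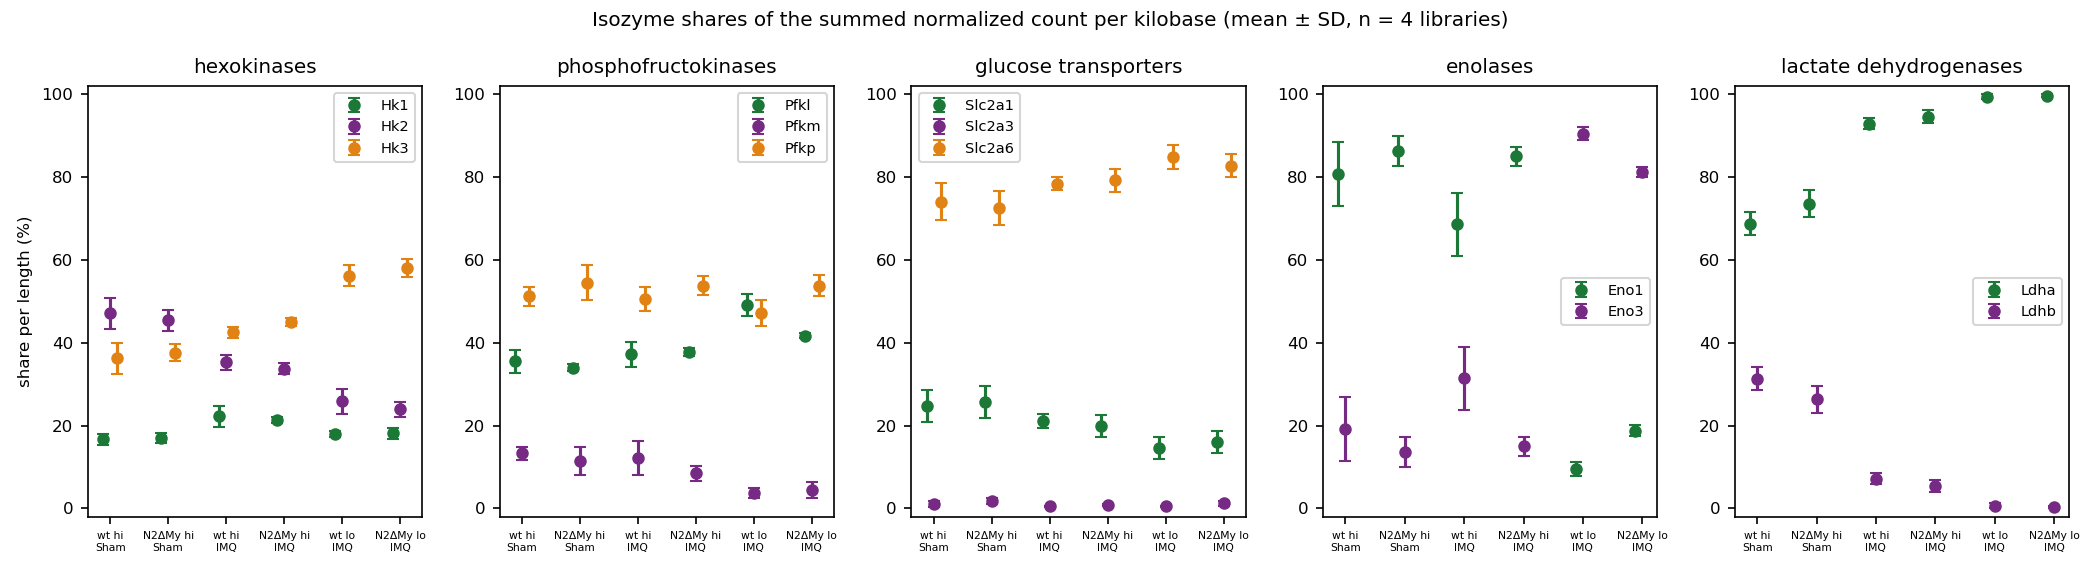
Share of each isozyme in its family's RNA per gene length, in percent, in the 6 groups. Points are means over 4 libraries with bars for the SD, and each family sums to 100. Eno3 goes from 31.4% in wt Ly6Chi to 90.5% in wt Ly6Clo cells under IMQ, and Hk2 from 47.1% in wt Sham to 25.9% in wt Ly6Clo cells.

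Beyond the members, 85 further genes of these pathways were listed and 64 could be tested. Under IMQ 5 were higher and 6 lower in wt cells, and 2 higher and 4 lower in N2ΔMy cells. Between Ly6Clo and Ly6Chi cells 8 were higher and 12 lower in wt mice, and 7 higher and 9 lower in N2ΔMy mice. In N2ΔMy against wt Ly6Clo cells 4 were higher and 2 lower, and in Ly6Chi cells 0 were called by limma in either treatment. In all, 17.2% and 9.38% were called for IMQ in wt and N2ΔMy cells, 31.2% and 25.0% between subsets, and 9.38% between genotypes in Ly6Clo cells. The shares of all genes were 9.49% and 8.7%, 24.6% and 17.4%, and 4.78%. The replicate block changed some of these calls. With it, Eno3 (log2 difference -1.20, adjusted p = 0.00562) and Bhlhe40 (-0.81, adjusted p = 0.0344) were lower in N2ΔMy than wt Ly6Chi cells under IMQ, where 0.481% of all genes were called. Hmox1, which encodes heme oxygenase, was added to those higher in N2ΔMy Ly6Clo cells (0.65, adjusted p = 0.00443, against 8.36% of all genes), and Slc37a2 to the interaction of genotype and subset (1.69, adjusted p = 0.039). It called 6 higher and 6 lower for IMQ in wt cells and 3 higher and 4 lower in N2ΔMy cells. Between subsets it called 8 higher and 13 lower in wt and 9 higher and 10 lower in N2ΔMy mice.

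The glycolytic pair with the largest changes was Eno3 and Ldhb. Eno3 stood at 203, 374, 606 and 923 in wt Ly6Chi IMQ libraries and 6229, 6473, 7156 and 7481 in wt Ly6Clo libraries, a log2 change of 3.90 ± 0.36 (15-fold; limma adjusted p = 1.46e-05), with 4.23 ± 0.32 (18.7-fold; limma adjusted p = 4.74e-06) in N2ΔMy mice. Under IMQ it rose in wt Ly6Chi cells by 1.44 ± 0.38 on the log2 scale (limma adjusted p = 0.0265), with 0.57 in the first library series and 2.31 in the second, and had a log2 difference of 0.66 in N2ΔMy cells (limma adjusted p = 0.285). It was lower in N2ΔMy Ly6Clo libraries, at 3199, 3322, 4332 and 4131, than in any wt Ly6Clo library, a log2 change of -0.88 ± 0.12 (limma adjusted p = 0.00188). Ldhb stood at 258, 271, 204 and 240 in wt Sham, 50, 55, 82 and 84 in wt Ly6Chi IMQ and 7, 2, 15 and 2 in wt Ly6Clo libraries. IMQ lowered it by a log2 change of -1.86 ± 0.21 (limma adjusted p = 0.000358) in wt and -2.10 ± 0.22 (limma adjusted p = 0.000275) in N2ΔMy cells, with no overlap. Ly6Clo cells were lower again, by a log2 change of -3.52 ± 0.57 (limma adjusted p = 0.000716) in wt and -3.80 ± 0.67 (limma adjusted p = 0.00185) in N2ΔMy mice, sizes that rest on values of 0 to 15 and on the pseudocount.

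The other genes named came from the lists of hypoxia genes, regulators of glucose use, pyruvate entry and transporters. Bhlhe40, a transcriptional repressor induced by hypoxia, rose under IMQ by 1.74 ± 0.19 (limma adjusted p = 0.000301) in wt and 1.28 ± 0.19 (limma adjusted p = 0.00164) in N2ΔMy cells on the log2 scale, and was lower in N2ΔMy than wt Ly6Clo cells, at -0.66 ± 0.12 (limma adjusted p = 0.0091). Mxi1, an antagonist of Myc, rose under IMQ by 0.93 ± 0.13 in wt (limma adjusted p = 0.0011) and 0.81 ± 0.11 in N2ΔMy cells (limma adjusted p = 0.000961). Pdp1, the phosphatase that activates pyruvate dehydrogenase, fell by 0.96 on the log2 scale in wt cells (limma adjusted p = 0.0195) and had a log2 difference of -0.33 in N2ΔMy cells (limma adjusted p = 0.528). Txnip, which restrains glucose uptake, fell by 0.90 in wt (limma adjusted p = 0.000454) and by 0.74 in N2ΔMy cells (limma adjusted p = 0.0033). Ddit4, an inhibitor of mTORC1, was 4.41-fold higher in Ly6Clo cells of wt (limma adjusted p = 0.00273) and 4.32-fold higher in those of N2ΔMy mice (limma adjusted p = 0.000416). Arrdc4, a relative of Txnip, was lower in Ly6Clo cells, at -2.72 ± 0.19 (limma adjusted p = 2.32e-06) and -2.03 ± 0.17 (limma adjusted p = 9.04e-06). Myc, a transcription factor that raises glycolytic genes, was higher in N2ΔMy than wt Ly6Clo cells by 2.68 ± 0.53 (limma adjusted p = 0.0133), and its interaction of genotype and subset was 3.11 ± 0.72 (limma adjusted p = 0.0464). Slc37a2, a sugar phosphate transporter gene, was higher there by 1.81 ± 0.43 (limma adjusted p = 0.0315).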

How the data were processed

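Sorted blood monocytes were profiled by RNA-seq (SMARTer Stranded Total RNA-Seq Pico kit, 75-bp single reads). Per the study's methods and processing notes, the authors trimmed reads with Trim Galore 0.4.4, aligned them with STAR 2.5.3a to GRCm38.p6 and normalized gene counts with DESeq2. The authors rounded these values before they deposited them, so each was treated as a score and not as raw counts, and a count model was not used. The deposited table also holds columns of the authors' own comparisons (log2 fold changes, standard errors, Wald statistics and p-values), which were not used.

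Of 53715 genes, 25137 were at 0 in every library and 11230 reached 50 in at least 1 of 24 libraries and were tested. Values were compared as log2(value + 1) with limma 3.58.1 (R 4.3.3; moderated statistics with a trend, fitted on the libraries of the groups compared), two-sided, with Benjamini-Hochberg adjustment over all tested genes. A gene was called if its adjusted p was 0.05 or less and its log2 fold change was 0.6 or more in size. The pseudocount pulls log2 fold changes of low genes toward 0, but single libraries near 0 can push them away from it. Egln3 under IMQ in wt Ly6Chi cells had means of 14.5 and 12.5 (Sham) and a fitted change of 1.65-fold. Scripts were tested on simulated data with 200 of 11230 genes changed in N2ΔMy Ly6Clo cells. Of 200 changes of 2-fold, 118 were recovered against wt Ly6Clo cells (104 with the replicate block) and 93 in the interaction of genotype and subset. Of 200 changes of 4-fold, 169 (162 with the block) and 161 were recovered. Between 2 and 9 unchanged genes were called.

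The members and all gene lists (6 of other pathway genes, 11 of cell markers) were chosen with earlier results of these data known, and 1 of the marker lists is not reported here. Named genes are all members and, among the other pathway genes, up to 2 called higher and 2 called lower in each comparison with the largest log2 fold change. Hmox1 was named besides these, for its call with the replicate block. Groups and replicate numbers came from the labels. Libraries with the same replicate number in compared groups deviated together (correlations of deviations from group means 0.16 to 0.619 over 28 pairs, all above 0.1). The labels do not say that the numbers mark a shared mouse or day. Within a library series these correlations ran from -0.116 to 0.263. They were -0.116 to 0.094 for IMQ against Sham and 0.206 to 0.263 for Ly6Clo against Ly6Chi cells. The main fits did not pair libraries, and the fit with the replicate number as a block was an alternative. The labels call the replicates biological, and depth sets the precision of low genes through counting error, which the replicate spread includes.

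Near-identical copies of members were found with blastn 2.17.0. Alternatives were TMM scaling, recomputed median-of-ratios factors, other pseudocounts, filters, thresholds and variance models, the library series, and leaving out each library.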

Additional observations from a re-analysis of the deposited data

Results flagged for a closer look

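Among the 222 combinations of a tested member and a group, 6 (2.7%) held 1 library that lay far from the other 3, where chance alone gives about 1 in 20. Gpi1 was 6012 in replicate 1 of wt Ly6Clo cells under IMQ and 5009 to 5180 in the others. Pfkm was 77 in replicate 4 of wt Ly6Chi Sham cells against 97 to 101, and 90 in replicate 1 of N2ΔMy Ly6Chi cells under IMQ against 53 to 58. Pfkfb4 was 1085 in replicate 3 of wt Ly6Clo cells against 1343 to 1386. Hif1a was 1976 in replicate 4 of wt Ly6Chi cells under IMQ against 1552 to 1606. Mif was 160 in replicate 4 of wt Ly6Chi Sham cells against 56 to 66, and without that library Mif in wt cells was higher under IMQ by 0.82 on the log2 scale (limma adjusted p = 0.0293), where it was not called with it.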

How the results depend on the processing

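Of the 36 calls of members, none changed sign under 828 alternative values, 766 stayed past both thresholds and 62 did not. All 36 remained called with TMM scaling, recomputed size factors, pseudocounts of 0.1 or 10, a floor of 1.1, a filter of 50 in 4 libraries, the replicate block, the library series as covariate and, chosen after seeing the data, the near-identical copies added. Without a filter 28 remained, within the first library series 27, within the second 25 and with replicates 1 to 3 alone 27. The count of members called for IMQ against Sham in wt cells was 9, and it was 5 in the second library series and 6 to 11 on leaving out 1 library. In N2ΔMy cells it was 8, and it was 5 in the first library series, 5 with replicates 1 to 3 alone, 17 with no minimum fold change and 5 to 11 on leaving out 1 library. For Ly6Clo against Ly6Chi cells it was 9 in wt (19 with no minimum fold change, 9 to 10 on leaving out 1 library) and 10 in N2ΔMy mice (16 in the second library series, 17 with no minimum fold change, 9 to 12 on leaving out 1 library). At an adjusted p of 0.01 and a log2 fold change of 1 the counts were 0 for IMQ in wt, 0 for IMQ in N2ΔMy and 3 for Ly6Clo against Ly6Chi cells in N2ΔMy mice. For N2ΔMy against wt Ly6Clo cells, 0 members were called, and 1 was with a pseudocount of 10, with the replicate block, with the library series as covariate or with all 24 libraries in one fit (Slc2a3 each time), 1 within the first library series (Hk3) and 1 with no minimum fold change (Taldo1). Leaving out 1 library gave 0 to 0 there and in the other genotype comparisons and interactions. The cause of these changes was not tested, apart from the fewer libraries or the other threshold in the setting itself. The replicate block changed the calls of Pgam1, Ndrg1, Pfkm and Slc2a3 and no other member's call. Leaving values undivided by gene length moved 62 of 78 isozyme shares by 1 SD or more. Leaving out 1 library of 4 cannot move a mean share that far, so it was no test of the shares. Depth limits Slc2a3, Egln3, Pfkm, Bnip3 and Mif, whose mean normalized counts, undivided by gene length, are the lowest among the members tested.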
